A study of Mus musculus with 6 samples.

Results

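Acinar cells make the digestive enzymes of the exocrine pancreas, and their transcripts are found at some level in most preparations of isolated islets. The gene set described here held 32 mouse genes: 29 that encode secreted enzymes, their cofactors or zymogen granule proteins, and 3 that encode transcription factors of acinar cells. The genes were chosen by name, with earlier results of these data known. They were found on the array through the RefSeq accession that the scanner files give for each probe. Of the 32, 29 had a matched probe (33 probes in all) and 26 were measurable enough to test, among 19021 genes tested. No probe was matched for Prss3, Ctrc or Amy2b. Pnliprp2, Cuzd1 and Ptf1a had probes that were not well above background on any of the 6 arrays.

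The samples were total RNA from pancreatic islets of male ICR mice aged 16 weeks, hybridised with Cy3 to 1-colour Agilent arrays, 2 arrays for each of 3 genotypes. All mice carried floxed alleles of Trsp, the gene for the selenocysteine tRNA that selenoprotein synthesis needs. TrspFF mice (TrspFlox/Flox) served as the floxed control. Trsp-RIPKO mice (TrspFlox/Flox::RIP-Cre) carried in addition a Cre under the rat insulin promoter, which is known to act in some hypothalamic neurons as well as in beta cells. Trsp-Ins1KO mice (TrspFlox/Flox::Ins1-Cre) carried a Cre driven by Ins1, which is largely restricted to beta cells. Neither Cre is directed at acinar cells, and the labels list no control group with Cre alone. No probe was matched to Trsp, so its deletion was not checked by these values. Per the design text, the loss of Trsp raises oxidative stress.

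Several properties of the arrays bear on every value. Whether the 2 arrays of a genotype hold RNA of different mice is not stated in the labels, and the p-values cover no more than the variation among these 6 arrays. Both Trsp-RIPKO arrays filled slide 2 alone, so that slide and genotype cannot be told apart there, whereas the TrspFF and Trsp-Ins1KO arrays shared slide 1. The columns named TrspFF and Trsp-Ins1KO in the authors' deposited value table follow each other's scanner files (r = 1.0 over 19486 probes for each column with the other group's file). Groups here follow the titles of the scanner files, and every sign of Trsp-Ins1KO against TrspFF turns under the table's own names. Insulin, islet amyloid polypeptide, Pdx1, glucagon and somatostatin probes were well above background on all 6 arrays, as were all other tested beta and hormone cell markers on the lists used. Signal was dimmer in Trsp-Ins1KO, with 75th percentiles of processed intensity of 110.7 and 121.9, than in the other arrays, with 203.0 to 247.2. No probe other than controls was saturated.

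Levels below are log2 processed intensities minus the 75th percentile of the same array, so that 0 is the 75th percentile, and a difference is a change relative to that array's other probes. The median of the array's spike-in control spots lay at -0.55 and -0.32 on this scale (TrspFF), -0.14 and -0.27 (Trsp-RIPKO) and 0.80 and 0.92 (Trsp-Ins1KO). Scaling to the spike-in spots instead lowered the median of all 19021 genes by 1.31 in Trsp-Ins1KO against TrspFF and put 93.7% of all genes below TrspFF, so no absolute change is stated for that line. A "higher" or "lower" gene is one with an adjusted p under 0.05 (limma, Benjamini-Hochberg over 19021 genes). A change in the number of acinar cells and a change in acinar RNA per cell cannot be told apart in such bulk samples. No probe's level is compared with another probe's.

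Acinar cells synthesise proteases, lipases, amylase and nucleases, many as inactive zymogens, and store them in granules until secretion into the duct. Their enzyme genes are switched on by a complex built on the basic helix-loop-helix factor Ptf1a, an E-protein partner and Rbpjl, the acinar form of the Notch mediator Rbpj. Bhlha15 (Mist1) shapes the secretory machinery and is also made in other professional secretory cells. The complex is known to bind an E-box next to a TGGGAA-type element that Rbpj factors recognise, so the promoters of a few members are shown to let the enzyme and factor genes be seen beside each other. The sequences are RefSeq promoters of build GRCm38.p6, each spanning the gene start and printed in the gene's own direction. Capitals mark CACCTG and TGGGAA on either strand (CAGGTG is CACCTG on the opposite strand), and none of the marked motifs overlap. The genes shown are a trypsinogen and 2 elastases whose differences are described below, and both tested transcription factors: Prss1 at chr6:41458680-41458979 (plus strand), Cela2a at chr4:141825956-141826255 (minus strand), Cela1 at chr15:100687871-100688170 (minus strand), Rbpjl at chr2:164402944-164403243 (plus strand) and Bhlha15 at chr5:144190036-144190335 (plus strand).
Prss1: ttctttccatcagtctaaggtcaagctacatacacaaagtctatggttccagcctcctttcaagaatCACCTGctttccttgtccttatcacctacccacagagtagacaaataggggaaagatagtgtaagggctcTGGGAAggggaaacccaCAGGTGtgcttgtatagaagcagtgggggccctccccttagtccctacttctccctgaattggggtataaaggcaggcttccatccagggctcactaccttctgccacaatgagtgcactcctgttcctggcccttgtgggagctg
Cela2a: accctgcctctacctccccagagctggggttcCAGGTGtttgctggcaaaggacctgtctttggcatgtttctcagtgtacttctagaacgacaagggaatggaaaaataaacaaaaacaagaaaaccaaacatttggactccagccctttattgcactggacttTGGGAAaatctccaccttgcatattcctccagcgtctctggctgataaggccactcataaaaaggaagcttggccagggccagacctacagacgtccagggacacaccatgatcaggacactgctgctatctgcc
Cela1: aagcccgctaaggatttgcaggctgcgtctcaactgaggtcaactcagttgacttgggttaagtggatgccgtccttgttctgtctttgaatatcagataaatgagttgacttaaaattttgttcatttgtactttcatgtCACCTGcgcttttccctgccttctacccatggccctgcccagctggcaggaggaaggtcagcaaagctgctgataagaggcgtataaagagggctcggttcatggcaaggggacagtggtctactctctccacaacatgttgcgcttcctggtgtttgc
Rbpjl: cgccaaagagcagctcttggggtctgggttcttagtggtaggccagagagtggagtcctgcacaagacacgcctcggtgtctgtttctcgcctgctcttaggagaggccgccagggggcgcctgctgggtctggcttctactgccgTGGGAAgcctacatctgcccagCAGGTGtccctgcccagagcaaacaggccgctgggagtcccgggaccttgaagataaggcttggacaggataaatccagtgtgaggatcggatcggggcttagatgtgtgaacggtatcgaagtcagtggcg
Bhlha15: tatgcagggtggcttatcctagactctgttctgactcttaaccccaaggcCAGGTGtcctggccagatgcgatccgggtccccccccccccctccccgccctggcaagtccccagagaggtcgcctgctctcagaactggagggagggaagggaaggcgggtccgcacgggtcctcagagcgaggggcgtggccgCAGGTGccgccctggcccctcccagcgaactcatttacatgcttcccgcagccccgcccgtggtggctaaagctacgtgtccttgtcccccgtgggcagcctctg

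CACCTG was present in the promoters of 16 of the 27 members with a promoter in the table, against 20.2% of all 32851 promoters. TGGGAA was present in 17 of the 27, against 25.6% of all promoters, and both were present in 8, against 5.3%. Members were counted once per gene, where any listed promoter of the gene could hold the motif, whereas the shares count every promoter. A gene with several promoters has more chances of a match. Prss1 held CACCTG 183 and 96 bases before its start, with TGGGAA 113 bases before it. In Rbpjl, the same pair of motifs lay at 82 and 104 bases, and in Cela2a at 218 and 85 bases. Cela1 held CACCTG alone, at 109 bases, and Bhlha15 held it at 200 and 55 bases with no TGGGAA in this window. A match is a description of letters and not of binding. The 8 tested members with both motifs had a median difference of 1.57 in Trsp-RIPKO against TrspFF, and the 14 other tested members with a promoter had 1.52. In Trsp-Ins1KO against TrspFF the medians were 1.09 with both motifs and 1.32 without.

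Most enzyme and granule genes were higher in the knockout lines than in the floxed islets, 22 of the 24 tested in Trsp-RIPKO and 20 of 24 in Trsp-Ins1KO. With the transcription factors included, in Trsp-RIPKO 23 of the 26 tested members were higher and 0 were lower, where 18.9% of all genes were higher and 17.5% lower (36.4% in either direction). In Trsp-Ins1KO, 20 of 26 were higher and 0 lower, where 23.0% of all genes were higher and 23.0% lower (45.9% in either direction). The median difference of the members was 1.53 for Trsp-RIPKO and 1.30 for Trsp-Ins1KO, against -0.00 and -0.01 for all genes. Under spike-in scaling the Trsp-RIPKO counts were 25 higher and 0 lower with a median of 1.30, whereas the Trsp-Ins1KO counts became 5 higher and 5 lower with a median of 0.00, beside a median of -1.31 over all genes. Both comparisons use the same 2 TrspFF arrays. Under the column names of the authors' deposited table, Trsp-RIPKO had 9 members higher and 2 lower with a median of 0.13, and Trsp-Ins1KO 0 higher and 20 lower with a median of -1.30.

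Counted by separation of the arrays, 25 members lay higher on both Trsp-RIPKO arrays than on either TrspFF array, where 38.1% of all genes did, and 1 lay lower (39.2% of all genes), which was Bhlha15. In Trsp-Ins1KO 23 members lay higher without overlap (37.9% of all genes) and Bhlha15 was again the 1 that lay lower (39.0%). Cela1 and Klk1 overlapped with the floxed arrays there.

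Of the 26 tested members, 22 were well above background on both TrspFF arrays. Cpb1, Rnase1, Klk1 and Pla2g1b entered only through a knockout group, which favours a higher value there. Among the 22 measured in the floxed islets, 21 were higher in Trsp-RIPKO and 18 in Trsp-Ins1KO. Summed over the 24 tested secreted or granule members, the level in TrspFF was 10.6 and 10.7 times the array's 75th percentile. Trsp-RIPKO reached 30.4 and 32.7 by the same sum, and Trsp-Ins1KO 28.8 and 27.9. The knockout arrays therefore lay well above the floxed arrays on this scale, and the arrays of 1 genotype lay close together.

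**Figure D1:**
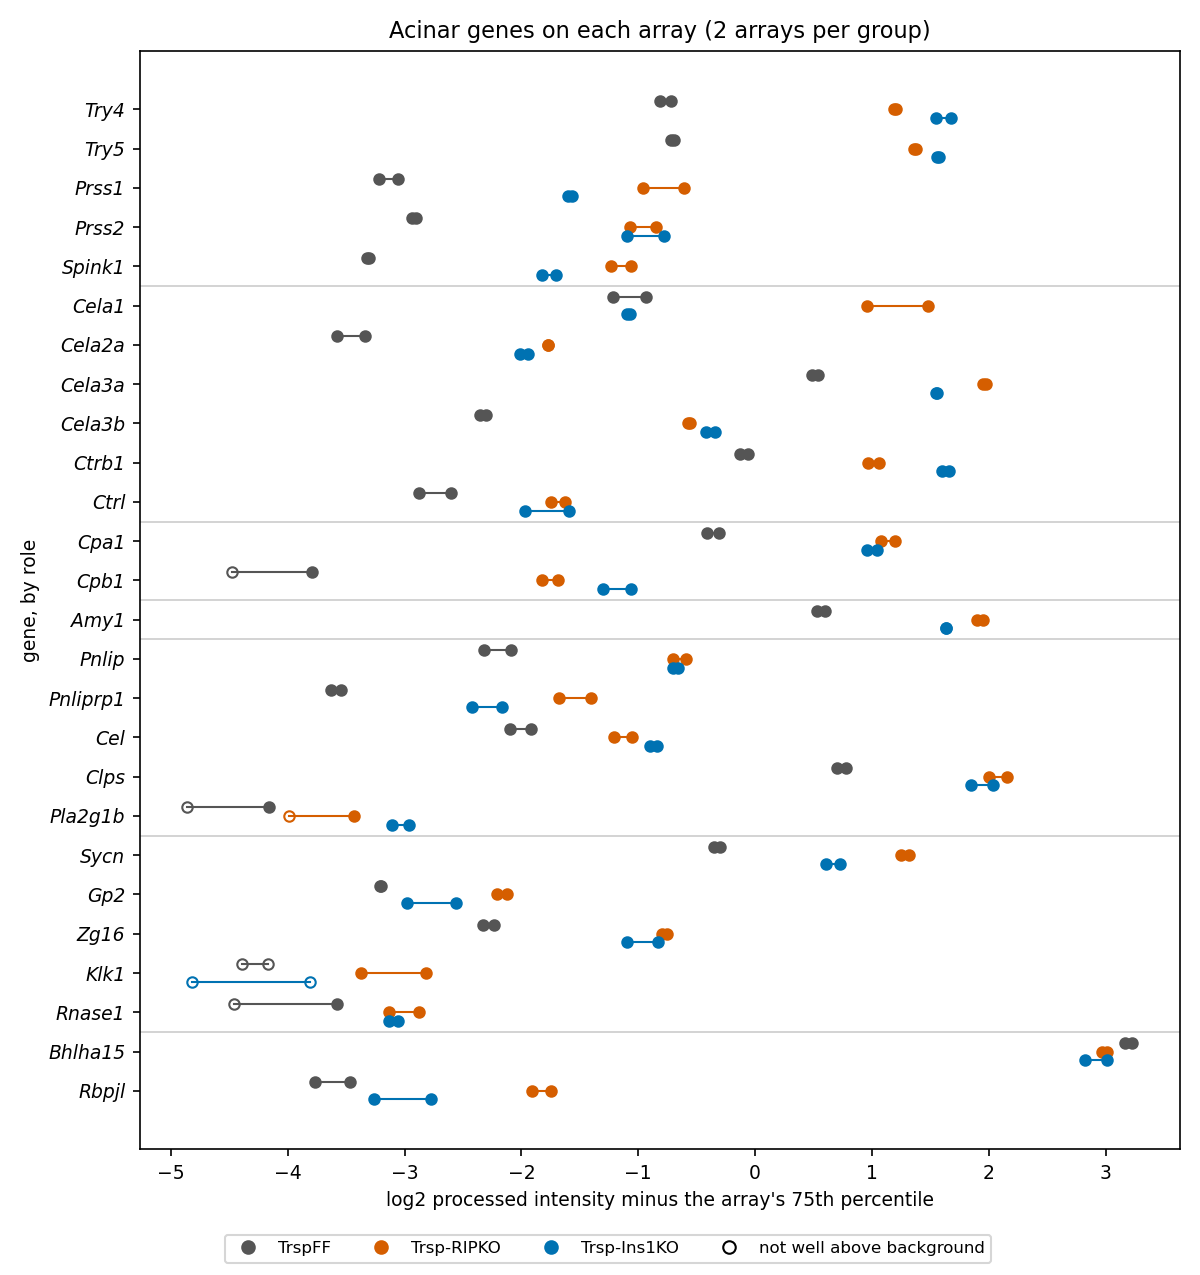
Level of each of the 26 tested acinar genes on each array (log2 processed intensity minus the array's 75th percentile, x axis), grouped by role, with 2 joined points per genotype and open points where the probe was not well above background. Most enzyme genes lay higher on both arrays of each knockout line (for Try4, 1.21 and 1.19 in Trsp-RIPKO, then 1.68 and 1.55 in Trsp-Ins1KO, against -0.72 and -0.81 in TrspFF), while Bhlha15 lay between 2.82 and 3.23 on all arrays; spike-in scaling would shift all Trsp-Ins1KO points down relative to TrspFF.

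The trypsinogens are the precursors of trypsin, which activates the other zymogens, and Spink1 encodes the trypsin inhibitor packed with them. All 5 tested genes of this class were higher in both lines, with median differences of 2.07 in Trsp-RIPKO and 1.99 in Trsp-Ins1KO. Prss1 had levels of -3.22 and -3.06 (TrspFF), -0.96 and -0.61 (Trsp-RIPKO) and -1.57 and -1.60 (Trsp-Ins1KO). Its 3 groups did not overlap, and Trsp-RIPKO was the highest. The rise was 2.36 (SE 0.135, adjusted p = 0.0021) in Trsp-RIPKO and 1.56 (SE 0.135, adjusted p = 0.00221) in Trsp-Ins1KO. A second Prss1 probe was well above background only in Trsp-RIPKO, at least 1.98-fold higher there than in TrspFF (the mean of the bright group over the higher of the lowest measurable signal and the dim probe's own).

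Try4 ran in the other order. Its levels were -0.72 and -0.81 (TrspFF), 1.21 and 1.19 (Trsp-RIPKO) and 1.68 and 1.55 (Trsp-Ins1KO). It rose by 1.96 in Trsp-RIPKO (SE 0.0789, adjusted p = 0.000899) and by 2.38 in Trsp-Ins1KO (SE 0.0789, adjusted p = 0.000399). Trsp-Ins1KO was highest on both arrays for this trypsinogen. Spink1 was at -3.30 and -3.32 (TrspFF), -1.23 and -1.06 (Trsp-RIPKO) and -1.82 and -1.70 (Trsp-Ins1KO), rising by 2.16 and 1.55 in the respective lines (adjusted p = 0.000995 and 0.0011). Try5 rose by 2.07 and 2.27, and Prss2 by 1.96 and 1.99. Under spike-in scaling Try4, Try5 and Prss2 stayed higher in Trsp-Ins1KO than in TrspFF, and the calls of Prss1 and Spink1 there were lost. Trypsinogen genes are near-identical copies, and each probe may also capture transcripts of its relatives.

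Elastases and chymotrypsins cut proteins within the chain and are themselves activated by trypsin. All 6 tested genes were higher in Trsp-RIPKO (median 1.57) and 5 of 6 in Trsp-Ins1KO (median 1.26). Cela1 was the exception. It was at -1.22 and -0.93 (TrspFF), 0.96 and 1.48 (Trsp-RIPKO) and -1.10 and -1.07 (Trsp-Ins1KO). The Trsp-RIPKO arrays stood apart, and the Trsp-Ins1KO arrays lay between the 2 floxed arrays. Cela1 rose by 2.29 in Trsp-RIPKO (SE 0.196, adjusted p = 0.00432), whereas its difference in Trsp-Ins1KO was -0.01 (SE 0.196, adjusted p = 0.962).

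Cela3b had the largest rise of the class in Trsp-Ins1KO, from -2.35 and -2.30 in TrspFF to -0.34 and -0.42, with -0.57 and -0.56 in Trsp-RIPKO. The differences were 1.94 (SE 0.069, adjusted p = 0.000417) in Trsp-Ins1KO and 1.76 (adjusted p = 0.000863) in Trsp-RIPKO. Ctrl, a chymotrypsin-like protease, moved least in Trsp-RIPKO, where its levels of -1.63 and -1.75 compared with -2.60 and -2.88 in TrspFF. Its Trsp-Ins1KO levels were -1.59 and -1.97, and both lines lay above the floxed arrays without overlap. The Ctrl difference was 1.05 in Trsp-RIPKO (SE 0.165, adjusted p = 0.0121) and 0.97 in Trsp-Ins1KO (adjusted p = 0.0091). The Trsp-RIPKO call of Ctrl was lost on leaving out any 1 of the TrspFF or Trsp-RIPKO arrays, with an adjusted p of up to 0.065.

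The 3 other genes of the class rose in both lines. Cela2a rose by 1.70 in Trsp-RIPKO and 1.49 in Trsp-Ins1KO. Cela3a rose by 1.45 and 1.04, and Ctrb1, the main chymotrypsinogen, by 1.11 and 1.72. A second Cela3a probe was at -2.67 and -2.40 (TrspFF), -1.03 and -1.11 (Trsp-RIPKO) and -1.03 and -1.23 (Trsp-Ins1KO), again with both knockout lines above the floxed arrays. Cela3a and Cela3b are close copies, so their probes may share signal. Under spike-in scaling the Trsp-Ins1KO differences of Cela3a and Ctrl turned to -0.25 and -0.33, and the calls of Cela2a (0.19) and Ctrb1 (0.43) were lost.

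The carboxypeptidases trim amino acids from the end of the chain. Cpb1, which removes basic residues, had the largest difference of its class in both lines. It was at -4.48 and -3.79 in TrspFF, with only the second of these arrays well above background, at -1.82 and -1.69 in Trsp-RIPKO, and at -1.06 and -1.30 in Trsp-Ins1KO. The rise was 2.38 in Trsp-RIPKO (SE 0.241, adjusted p = 0.00597) and 2.96 in Trsp-Ins1KO (SE 0.241, adjusted p = 0.00201). Cpa1 was at -0.41 and -0.31 (TrspFF), 1.08 and 1.20 (Trsp-RIPKO) and 0.96 and 1.04 (Trsp-Ins1KO), a rise of 1.49 (adjusted p = 0.00197) and 1.36 (adjusted p = 0.00118). The Cpb1 call in Trsp-Ins1KO was kept under spike-in scaling and that of Cpa1 was lost. With normexp background correction the Cpb1 differences were 0.93 and 1.38, the former below that of Cpa1 (1.26).

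Amy1 encodes the salivary-type amylase, which digests starch, and shares much of its sequence with the pancreatic amylase genes. It was at 0.53 and 0.60 (TrspFF), 1.90 and 1.95 (Trsp-RIPKO) and 1.63 and 1.63 (Trsp-Ins1KO). The groups were well separated, and Amy1 rose by 1.36 (SE 0.0675, adjusted p = 0.00154) and 1.06 (SE 0.0675, adjusted p = 0.00129), the latter turning to -0.23 under spike-in scaling. The pancreatic amylase Amy2a5, on a list of further acinar genes, rose by 1.37 and 0.96.

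Lipases split dietary fat, helped by colipase (Clps). In Trsp-RIPKO 4 of 5 tested genes were higher (median 1.34), and in Trsp-Ins1KO all 5 (median 1.28). Pnliprp1, a lipase-related protein, led in Trsp-RIPKO, with levels of -3.54 and -3.63 (TrspFF), -1.68 and -1.40 (Trsp-RIPKO) and -2.17 and -2.42 (Trsp-Ins1KO). Its rise was 2.04 (SE 0.136, adjusted p = 0.00301) and 1.28 (SE 0.136, adjusted p = 0.00316). Pancreatic lipase, Pnlip, went from -2.32 and -2.09 in TrspFF to -0.70 and -0.59 in Trsp-RIPKO and to -0.66 and -0.70 in Trsp-Ins1KO. The knockout lines were alike in level for Pnlip, with rises of 1.56 (adjusted p = 0.00301) and 1.53 (adjusted p = 0.00143).

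Cel, the bile salt-activated lipase, rose least of the lipases in Trsp-Ins1KO. Its levels were -1.92 and -2.10 (TrspFF), -1.21 and -1.05 (Trsp-RIPKO) and -0.84 and -0.90 (Trsp-Ins1KO), for rises of 0.88 (adjusted p = 0.00724) and 1.14 (adjusted p = 0.00224). Clps rose by 1.34 and 1.21, and its second probe went from -2.09 and -2.00 to -0.68 and -0.56 (Trsp-RIPKO) or -0.84 and -1.25 (Trsp-Ins1KO). Pla2g1b, the pancreatic phospholipase A2, was dim, with only 1 array well above background in each of TrspFF and Trsp-RIPKO, at -4.16 and -4.86 (TrspFF), -3.99 and -3.43 (Trsp-RIPKO) and -3.11 and -2.96 (Trsp-Ins1KO). It rose by 1.48 in Trsp-Ins1KO (SE 0.289, adjusted p = 0.0134). In Trsp-RIPKO its difference was 0.79 (SE 0.289, adjusted p = 0.0848). Without the second Trsp-Ins1KO array the adjusted p in that line was 0.054, and under spike-in scaling Pnliprp1, Cel and Clps turned to -0.01, -0.16 and -0.09 in Trsp-Ins1KO, where the calls of Pnlip (0.23) and Pla2g1b (0.18) were lost.

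The last secreted class holds zymogen granule and other secreted proteins. In Trsp-RIPKO 4 of 5 tested genes were higher (median 1.19; 1.15 with Klk1 at its bound), and in Trsp-Ins1KO 2 of 5 (median 0.92). Sycn, a granule membrane protein, was at -0.30 and -0.35 (TrspFF), 1.25 and 1.32 (Trsp-RIPKO) and 0.61 and 0.73 (Trsp-Ins1KO). It rose by 1.61 (SE 0.0764, adjusted p = 0.00137) and 0.99 (SE 0.0764, adjusted p = 0.00186), the latter turning to -0.30 under spike-in scaling. Zg16, a granule lectin, was at -2.33 and -2.23 (TrspFF), -0.80 and -0.75 (Trsp-RIPKO) and -1.10 and -0.83 (Trsp-Ins1KO), rising by 1.50 (adjusted p = 0.00362) and 1.31 (adjusted p = 0.00216). Both genes lay above the floxed arrays on every knockout array, and the Trsp-Ins1KO call of Zg16 was lost under spike-in scaling (0.02).

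Gp2, the major granule membrane glycoprotein, rose by 1.04 in Trsp-RIPKO (SE 0.149, adjusted p = 0.0105), and its difference in Trsp-Ins1KO was 0.44 (SE 0.149, adjusted p = 0.0627). Its call in Trsp-RIPKO was lost without any 1 of the TrspFF or Trsp-RIPKO arrays, with an adjusted p of up to 0.066. Rnase1, the pancreatic ribonuclease, was at -4.46 and -3.58 (TrspFF), -3.13 and -2.88 (Trsp-RIPKO) and -3.13 and -3.06 (Trsp-Ins1KO). Only 1 of the floxed arrays measured it above background. The Rnase1 difference was 1.02 in Trsp-RIPKO (SE 0.295, adjusted p = 0.0486) and 0.92 in Trsp-Ins1KO (adjusted p = 0.0533). Leaving out single arrays took its adjusted p in Trsp-RIPKO as high as 0.19, and that call was lost under 5 of 6 such exclusions. Klk1, a tissue kallikrein, was well above background only in Trsp-RIPKO, at -3.37 and -2.82 against -4.17 and -4.39 in TrspFF and -4.82 and -3.81 in Trsp-Ins1KO. It was at least 2.22-fold brighter in Trsp-RIPKO than in TrspFF, with an adjusted p of 0.0585, and its Trsp-Ins1KO value of -0.04 compares levels below background.

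**Figure D2:**
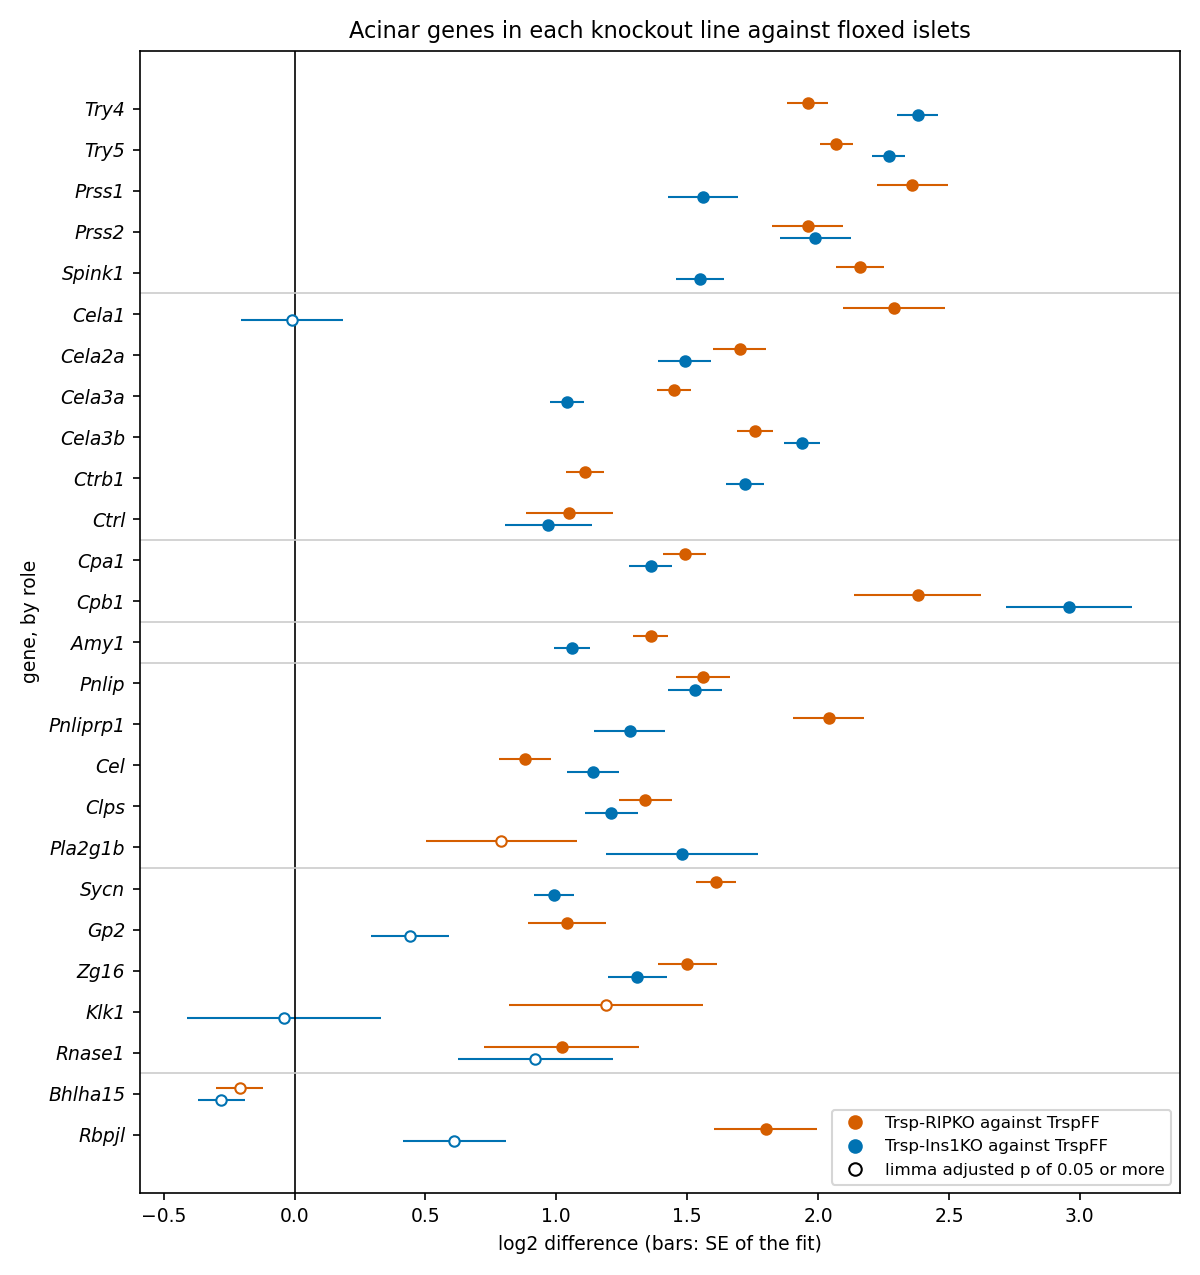
Log2 difference of each tested acinar gene in Trsp-RIPKO and in Trsp-Ins1KO against TrspFF (x axis), grouped by role, with bars for the SE of the fit and open points where the limma adjusted p was 0.05 or more. Differences of the 24 secreted or granule genes ran from 0.79 to 2.38 in Trsp-RIPKO and from -0.04 to 2.96 in Trsp-Ins1KO (where 9 more of them turn below 0 under spike-in scaling), and Bhlha15 lay at -0.21 and -0.28.

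The transcription factors of acinar cells did not move as a class. Ptf1a, the core of the enzyme-activating complex, had levels of -6.11 and -6.08 (TrspFF), -6.01 and -6.37 (Trsp-RIPKO) and -5.43 and -5.24 (Trsp-Ins1KO). None of these was well above background, so they give no order and no fold. Bhlha15 was at 3.17 and 3.23 (TrspFF), 2.97 and 3.01 (Trsp-RIPKO) and 3.01 and 2.82 (Trsp-Ins1KO). Every array measured it above background, with both knockout lines slightly below the floxed arrays. The difference was -0.21 (SE 0.089, adjusted p = 0.122) in Trsp-RIPKO and -0.28 (SE 0.089, adjusted p = 0.051) in Trsp-Ins1KO, and it passed the test under some other settings, median scaling among them, with values as low as -0.45 in Trsp-RIPKO.

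Rbpjl is the subunit of the complex particular to acinar cells. Its levels were -3.77 and -3.47 (TrspFF), -1.91 and -1.75 (Trsp-RIPKO) and -3.26 and -2.77 (Trsp-Ins1KO). It rose by 1.80 in Trsp-RIPKO (SE 0.197, adjusted p = 0.00686), a difference within the range of the enzymes. The Trsp-Ins1KO difference was 0.61 (SE 0.197, adjusted p = 0.0549), below most of the enzymes, and -0.68 under spike-in scaling. That call was gained with normexp background correction (0.66), median scaling (0.54), the stricter background filter, the replicate block and the trend model. Between the lines Rbpjl differed by -1.19, and by -0.04 with normexp, where that call was lost. The class medians were 0.79 and 0.16 over Bhlha15 and Rbpjl, against 1.53 and 1.34 for the 24 secreted or granule genes. The 2 tested factors thus differ in their pattern, and no median of them speaks for the class.

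The knockout lines were also compared directly. In Trsp-Ins1KO against Trsp-RIPKO 2 of 26 members were higher and 9 lower, where 19.3% of all genes were higher and 19.4% lower (38.7% in either direction). The share called in either direction was near that of all genes, while the split leaned to lower genes. The member median was -0.13, against -0.01 for all genes. Cela1 was the widest apart, -2.30 (SE 0.196, adjusted p = 0.00211) or 4.93-fold lower in Trsp-Ins1KO, followed by Rbpjl at -1.19 (SE 0.197, adjusted p = 0.00999). The lower genes also took in Prss1 (-0.80), Pnliprp1 (-0.76), Sycn (-0.62), Spink1 (-0.61) and Gp2 (-0.60). Cela3a and Amy1 differed by less, at -0.41 and -0.30. The higher genes were Ctrb1 at 0.61 (adjusted p = 0.00443) and Try4 at 0.42 (adjusted p = 0.014).

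The split of these calls depended on the scaling: it was 6 higher and 7 lower with median scaling, 7 and 7 with normexp background correction, and 0 and 25 with spike-in scaling. Across the other alternatives, 4 of the 11 calls held under all of them, namely Cela1, Ctrb1, Prss1 and Sycn, and with spike-in scaling added Ctrb1 turned to -0.45. Without the second Trsp-RIPKO array, the calls for Rbpjl and Pnliprp1 were among those lost and 5 members were lower. The groups did not overlap, with Trsp-Ins1KO higher, for 7 members (35.4% of all genes) and, with Trsp-Ins1KO lower, for 13 (36.4%). The comparison crosses the slides, so slide and line cannot be told apart in it.

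**Figure D3:**
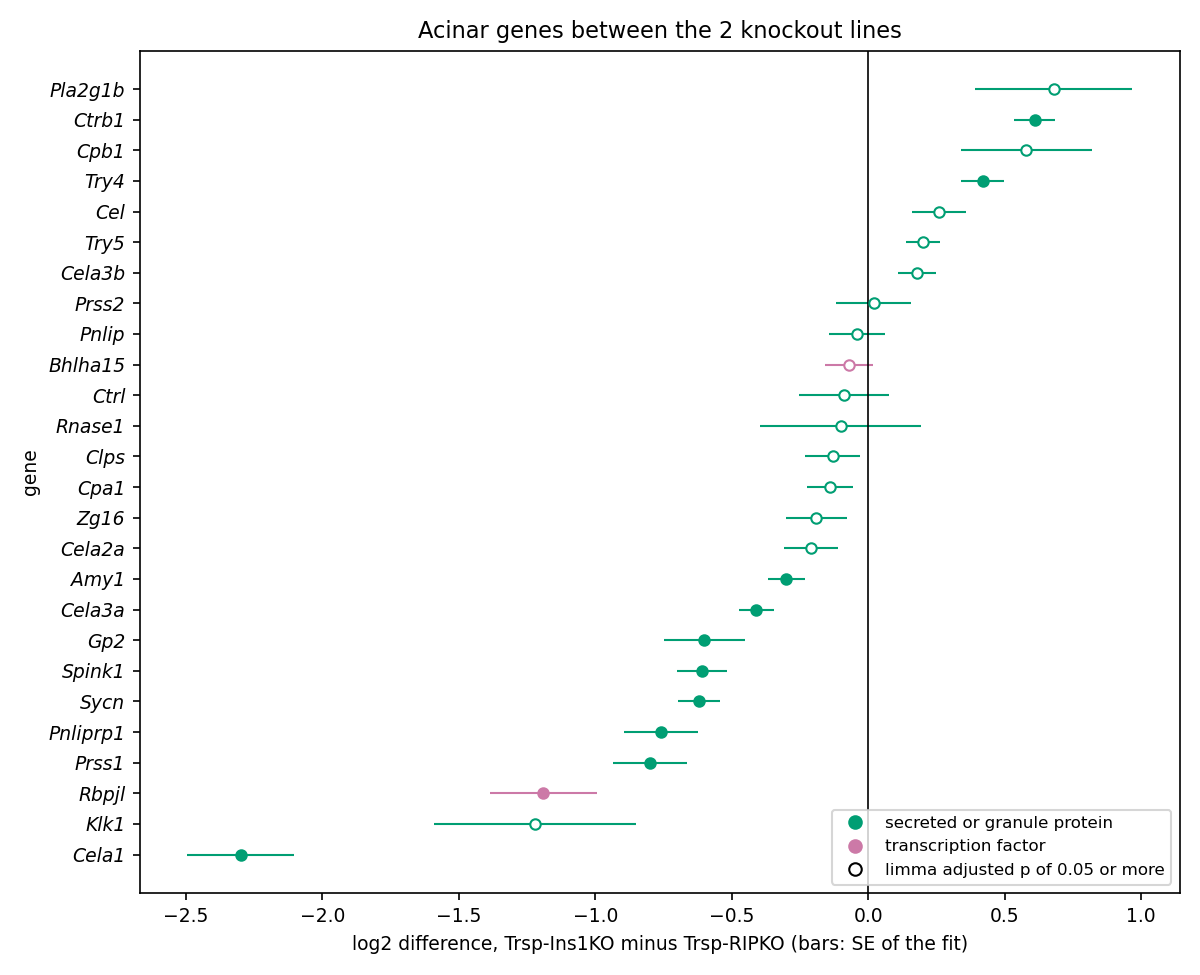
Log2 difference of each tested acinar gene between Trsp-Ins1KO and Trsp-RIPKO (x axis, negative where Trsp-Ins1KO was lower), with SE bars, sorted, and open points where the limma adjusted p was 0.05 or more. Cela1 at -2.30 stands apart from the rest, and Ctrb1 (0.61) and Try4 (0.42) are the genes called higher in Trsp-Ins1KO, both turning below 0 under spike-in scaling.

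A list of further acinar genes held 28 genes, of which 22 were tested. In Trsp-RIPKO 13 were higher and 2 lower, with a median of 0.45, beside 18.9% and 17.5% of all genes. In Trsp-Ins1KO 8 were higher and 5 lower, with a median of 0.23, beside 23.0% of all genes in each direction, so the share of lower genes was near that of all genes. In Trsp-RIPKO the largest differences were those of Dmbt1, a secreted scavenger receptor (3.37, adjusted p = 0.000499), the endoplasmic reticulum folding factor Fkbp11 (2.96, adjusted p = 0.0041), the pancreatic disulfide isomerase Pdia2 (1.56, adjusted p = 0.00362) and Amy2a5 (1.37, adjusted p = 0.00329). In Trsp-Ins1KO they were those of the stress-response gene Nupr1 (1.96, adjusted p = 0.000817) and the transcription factor Creb3l1 (1.51, adjusted p = 0.000526). They were followed, among the genes measured on all arrays of both groups, by Amy2a5 (0.96, adjusted p = 0.00278). The serpin Serpini2 and the trefoil factor Tff2 were not well above background in Trsp-Ins1KO, where they were at least 1.23-fold and 1.52-fold lower than in TrspFF (adjusted p = 0.0174 and 0.00186). Dmbt1 and Fkbp11 had differences of 0.19 and 0.46 in Trsp-Ins1KO that did not pass the test.

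Partners of the acinar complex showed small differences. Rbpj, which Rbpjl replaces in mature acinar cells, fell by 0.39 in Trsp-RIPKO and 0.29 in Trsp-Ins1KO (adjusted p = 0.0154 and 0.0231). The E-proteins Tcf3 and Tcf12, possible partners of Ptf1a, rose by 0.30 and 0.49 in Trsp-RIPKO and by 0.68 and 0.41 in Trsp-Ins1KO. Nr5a2, a nuclear receptor of acinar cells, rose by 0.35 in Trsp-RIPKO, and its Trsp-Ins1KO difference was -0.03. Xbp1, a regulator of the secretory pathway, was at -0.17 and 0.14, neither passing the test, and Gata4 was not tested. All of these differences are relative to the 75th percentile of the array, and the list was not examined under spike-in scaling.

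Markers of other cell types changed in the same comparisons, on the same scale. Small intestine markers were higher for 6 of 7 tested genes in Trsp-RIPKO and 4 of 7 in Trsp-Ins1KO, where 18.9% and 23.0% of all genes were higher. The median difference in Trsp-RIPKO was 5.15 (3.47 with genes at their bounds). Of the 4 called in Trsp-Ins1KO, Defa17 and Defa3 were not well above background on any array of either group, which leaves Fabp1 and Vil1 (0.28) as measured there. Among these markers, Defa17, an intestinal Paneth cell defensin, was at least 46.2-fold higher in Trsp-RIPKO, and Fabp1, the fatty acid-binding protein of enterocytes and hepatocytes, at least 13.1-fold higher in Trsp-RIPKO and 11.6-fold in Trsp-Ins1KO. Cdx1, Cdx2, Apoa4, Sis and Alpi were not above background on both arrays of any group. The summed level of the 7 tested intestinal genes ranged from 7.93 to 8.18 in TrspFF, 14.6 to 14.7 in Trsp-RIPKO and 9.88 to 10.3 in Trsp-Ins1KO. In TrspFF only Vil1, Lgals4 and Lyz1 of these were well above background, so the sum there holds mainly those genes. Vil1, at a mean of 2.64 in TrspFF, differed by only 0.13 in Trsp-RIPKO and 0.28 in Trsp-Ins1KO. Fibroblast markers were higher for 5 of 6 genes in Trsp-RIPKO and lower for 5 of 6 in Trsp-Ins1KO, where Pdgfrb was higher (0.75, adjusted p = 0.0213). The summed level of the fibroblast markers was 12.6 to 13 in TrspFF, 19.2 to 19.3 in Trsp-RIPKO and 4.75 to 4.97 in Trsp-Ins1KO.

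Called counts of the remaining lists are to be read beside the shares of all genes, 18.9% higher and 17.5% lower in Trsp-RIPKO and 23.0% each way in Trsp-Ins1KO, which several of them approach. Duct markers were higher for 2 and lower for 2 of 8 in Trsp-RIPKO, and higher for 1 and lower for 2 in Trsp-Ins1KO. Their summed level stayed between 6.1 and 6.93 on all arrays, but a sum is weighted to the brightest probes. Their median level was -0.32 and -0.38 on the Trsp-RIPKO arrays. It was lower in TrspFF (-1.59 and -1.87) and Trsp-Ins1KO (-1.34 and -1.42). The median of their single-gene differences was -0.09 (Trsp-RIPKO) and 0.13 (Trsp-Ins1KO). Duct genes thus moved in both directions, and the steady sum does not show an unchanged duct signal. Endothelial markers were higher for 4 of 6 in each line, with 1 lower in Trsp-Ins1KO. Macrophage markers were higher for 1 of 5 in each line, and 0 of 8 plasma and B cell genes were testable. Beta cell markers were lower for 4 of 10 in Trsp-RIPKO, and higher for 6 and lower for 2 in Trsp-Ins1KO. Markers of other hormone cells were lower for 4 of 8 and 5 of 8, with 1 higher in Trsp-RIPKO. The part of other cell types, of slide and of overall signal in the acinar differences was not tested. The TrspFF and Trsp-Ins1KO arrays shared slide 1. Fitting only the arrays of the compared groups also gave 20 members higher in Trsp-Ins1KO. That fit leaves the differences as they are and changes only the estimate of spread, so it is no test of these causes.

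**Figure D4:**
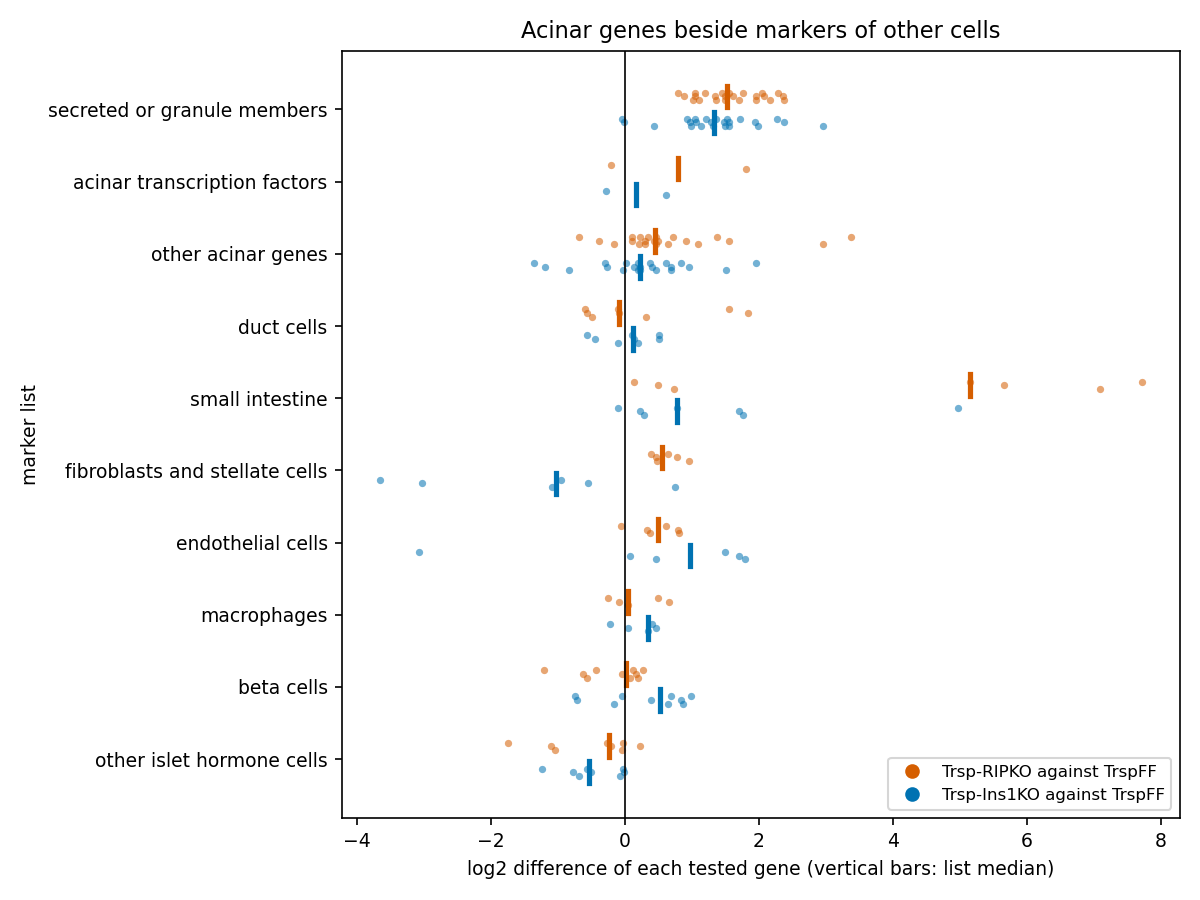
Log2 differences against TrspFF (x axis) for the acinar members, further acinar genes and marker lists of other cells, with a point per tested gene and a vertical bar at the list median. The secreted or granule members have medians of 1.53 in Trsp-RIPKO and 1.34 in Trsp-Ins1KO, while fibroblast markers have 0.56 and -1.02; spike-in scaling would move the Trsp-Ins1KO points by the shift of all genes.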

How the data were processed

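Each sample was 1 Agilent array of design 026655 (grid build mm9), scanned and extracted by the authors with Feature Extraction 10.7.3.1, per the file headers. The deposited scanner files hold intensities, and the processed intensity had already been background-subtracted by that software, per the file headers. The authors' deposited value table holds log2 values, centred per probe, and was used only as an alternative. Control spots were dropped here, as were those marked as outliers (108 to 155 per array), spots of a probe were averaged, and log2 processed intensity minus each array's 75th percentile was taken over 39426 probes. Probes were named through their RefSeq accession and the RefSeq gene table of GRCm38.p6: 26053 probes (66.1%) had a name. Between 51.4% and 61.0% of probes per array were well above background by the deposited 0 or 1 flag, and 2 arrays per group limit the precision.

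Probes were kept that at least 1 group measured well above background on both of its arrays, and the kept probe with the highest mean stood for its gene. Differences were fitted to all 6 arrays with limma 3.58.1 in R 4.3.3 (lmFit, eBayes, 2-sided, Benjamini-Hochberg over 19021 genes, threshold 0.05), checked on simulated data. Tables and figures were made with Python 3.11.15. Where a probe was not above background in a group, the ratio is a lower bound.

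The members and gene lists were chosen with earlier results of these data known. Array values are given for the transcription factors and, in each role class, for the genes with the largest and smallest absolute difference in each comparison with TrspFF. Of further acinar genes, up to 4 per comparison with the largest differences and 6 regulators were named. Defining genes were named from the marker lists. Alternatives covered background correction (normexp on the deposited median and local background intensities, offset 50), scaling, filters on dim probes, the probe rule, the arrays fitted, the variance model, a replicate block, the deposited table and leaving out each array. Scaling to spike-in spots was added after seeing the data. Same-numbered arrays of different groups did not deviate together (r = 0.093, 0.079 and 0.065), so the numbers were not treated as pairs.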

Additional observations from a re-analysis of the deposited data

Results flagged for a closer look

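The direct comparison of Trsp-Ins1KO with Trsp-RIPKO drew attention to 11 acinar genes. Their levels differed between the lines by a test of that difference (limma, adjusted over 19021 genes). Both Trsp-RIPKO arrays filled slide 2 alone, so slide and line cannot be told apart in these differences. Only 4 of the 11 calls, those of Cela1, Ctrb1, Prss1 and Sycn, held under all alternatives but spike-in scaling. Lower in Trsp-Ins1KO were Cela1 (-2.30, adjusted p = 0.00211), Rbpjl (-1.19, adjusted p = 0.00999), Prss1 (-0.80, adjusted p = 0.0103), Pnliprp1 (-0.76, adjusted p = 0.0125), Sycn (-0.62, adjusted p = 0.00473), Spink1 (-0.61, adjusted p = 0.00746), Gp2 (-0.60, adjusted p = 0.03), Cela3a (-0.41, adjusted p = 0.00854) and Amy1 (-0.30, adjusted p = 0.0235). Higher were Try4 (0.42, adjusted p = 0.014) and Ctrb1 (0.61, adjusted p = 0.00443), both of which turn negative under spike-in scaling. Every one of the 11 was separated on both arrays of the lines. Of all genes, 35.4% were so separated with Trsp-Ins1KO higher and 36.4% with it lower. The 11 were selected by the test on the same values, so their separation adds no support. A second Cela3a probe overlapped between the lines, at -1.03 and -1.11 (Trsp-RIPKO) and -1.03 and -1.23 (Trsp-Ins1KO). The Cela3a call was lost when the probes were averaged. Of all genes, 38.7% were called in either direction in this comparison.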

How the results depend on the processing

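In Trsp-RIPKO, 20 of 23 calls held under every alternative run for single genes, the exceptions being Ctrl, Gp2 and Rnase1; in Trsp-Ins1KO 19 of 20 held under all but spike-in scaling, the exception being Pla2g1b, and 5 with it. Cpb1, counted as held in both lines, was not tested under the filter for probes above background on all arrays, which left 22 members. Single genes were not computed for the deposited table under its own names. Leaving out single arrays gave, for Trsp-RIPKO, 20 to 23 higher, 0 to 0 lower and medians of 1.45 to 1.59; for Trsp-Ins1KO, 20 to 21 higher, 0 to 1 lower and medians of 1.28 to 1.31; and between the lines, 1 to 3 higher, 5 to 9 lower and medians of -0.21 to -0.12. With the replicate block the counts were 23 higher and 0 lower, 22 and 0, and 2 and 10; the array numbers share only a number. Over all genes, leaving out TrspFF replicate 1 left 706 higher and 156 lower in Trsp-RIPKO, against 3592 and 3329.

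The causes of the following changes were not tested. Normexp background correction gave medians of 0.94, 0.81 and 0.04 (Trsp-RIPKO, Trsp-Ins1KO and between the lines), with 1 lower in each line against TrspFF and 7 higher between the lines. Median scaling shifted all genes by -0.24, -0.08 and 0.16 and gave member medians of 1.30, 1.23 and 0.03, with 1 lower in each line and 6 higher between the lines. Quantile normalization gave a Trsp-Ins1KO median of 1.22 with 1 lower, and no filter 1.21. The stricter filter and the trend model gave 1 lower in Trsp-Ins1KO, and the trend model 1 lower in Trsp-RIPKO. The deposited table by its own names gave 9 higher, 2 lower and 0.13 for Trsp-RIPKO; 0 higher, 20 lower and -1.30 for Trsp-Ins1KO; and 0 higher, 23 lower and -1.53 between the lines. Spike-in scaling gave medians of 1.30, 0.00 and -1.20, with 5 higher and 5 lower in Trsp-Ins1KO and 0 higher and 25 lower between the lines, where all genes shifted by -0.23, -1.31 and -1.07.

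Under spike-in scaling the sign turned in Trsp-Ins1KO for Cela3a (-0.25), Ctrl (-0.33), Amy1 (-0.23), Pnliprp1 (-0.01), Cel (-0.16), Clps (-0.09), Sycn (-0.30), Gp2 (-0.86), Rnase1 (-0.37) and Rbpjl (-0.68), and between the lines for Try4 (-0.65), Try5 (-0.87), Prss2 (-1.04), Cela3b (-0.88), Ctrb1 (-0.45), Cpb1 (-0.49), Cel (-0.80) and Pla2g1b (-0.38). In Trsp-Ins1KO, uncalled Cela1 turned to 0.15 and Klk1 to 0.62 under normexp, and leaving out arrays took Cela1 from -0.16 to 0.13 and Klk1 from -0.54 to 0.47. Between the lines normexp turned Cela2a (0.17), Ctrl (0.20), Pnlip (0.02), Gp2 (0.07), Klk1 (0.18) and Rnase1 (0.31); quantile normalization turned Ctrl (0.01) and Rnase1 (0.06); and median scaling turned Ctrl (0.08), Cpa1 (0.03), Pnlip (0.13), Clps (0.04), Rnase1 (0.07) and Bhlha15 (0.09). Leaving out single arrays gave uncalled values between the lines of -0.14 to 0.18 for Prss2, -0.28 to 0.10 for Ctrl, -0.10 to 0.02 for Pnlip, -0.22 to 0.03 for Rnase1 and -0.17 to 0.02 for Bhlha15.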

Other observations

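Among the duct markers, Cftr, the chloride channel of duct cells, had a difference of 1.56 in Trsp-RIPKO (adjusted p = 0.00297) and -0.44 in Trsp-Ins1KO (adjusted p = 0.0218), and Spp1, which encodes the secreted protein osteopontin, had 1.84 (adjusted p = 0.00297) and 0.51 (adjusted p = 0.0226). Krt19, a keratin of duct epithelium, had 0.31 and 0.19, neither passing the test. Other duct markers went the other way. Krt7 had -0.56 in Trsp-RIPKO (adjusted p = 0.0394) and 0.14 in Trsp-Ins1KO, the latter not passing. Tspan8 had -0.49 and -0.56 (adjusted p = 0.0113 and 0.00474). Of the 8 duct markers tested, 2 were higher and 2 lower in Trsp-RIPKO, and 1 higher and 2 lower in Trsp-Ins1KO. Vamp8, a granule fusion protein of acinar cells, fell by 0.69 in Trsp-RIPKO (adjusted p = 0.0144) and by 0.84 in Trsp-Ins1KO (adjusted p = 0.00556), against the direction of the enzymes. Gatm, which makes the creatine precursor and is abundant in acinar cells, rose by 0.71 (adjusted p = 0.00717) and 0.68 (adjusted p = 0.00372). Cftr, Spp1, Krt19, Krt7, Tspan8, Vamp8 and Gatm were picked out after their values were seen.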
